A study of Mus musculus with 39 samples.

Results

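A group of 10 genes that mark or equip adipocytes was followed through all libraries of injured and healthy sciatic nerve: *Adipoq*, *Cfd*, *Retn*, *Plin1*, *Cidec*, *Plin4*, *Lipe*, *Pnpla2*, *Fabp4* and *Pparg*. They are 10 of the 55573 genes counted and 10 of the 18442 genes that passed the filter on low counts. They had been picked because earlier results of these data showed higher counts in some healthy *Lepr*-cKO and in injured nerves. Their values in those comparisons are therefore given as a description, with no test. Only the comparison of genotypes among injured nerves, and that of both nerves of a mouse, were not used for the choice and are tested. When only the healthy libraries at 2 wpc entered the filter, 6 of the 10 passed it, and *Adipoq*, *Plin1*, *Cidec* and *Retn* did not.

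The white adipocyte stores triglyceride in a single large lipid droplet, releases fatty acids from it by lipolysis, and secretes hormones such as adiponectin, resistin and leptin. In a peripheral nerve, adipocytes lie in the epineurium, the loose outer sheath, and not among the axons and Schwann cells of the endoneurium. Leptin acts through the leptin receptor, encoded by *Lepr*, the gene deleted in Schwann cells in this series.

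Bulk RNA-seq was carried out on endoneurium of the distal sciatic nerve from C57BL/6 mice of both sexes, 2 to 4 months old, after a crush of one nerve. *Lepr*-ctrl mice carried only the floxed alleles (*Lepr*fl/fl), and *Lepr*-cKO mice were *Lepr*fl/fl::*Dhh*-Cre, with the recombinase driven by *Dhh* in Schwann cells from embryonic life on. The uncrushed nerve of the other side is called healthy, and nerves were taken 2 or 4 weeks post crush (wpc) from different mice. In all, 39 libraries came from 22 mice, 17 of which gave both nerves. The healthy nerves at 2 wpc came from 5 *Lepr*-ctrl and 6 *Lepr*-cKO mice and the injured ones from 5 of each genotype. At 4 wpc there were 5 healthy and 4 injured nerves of each genotype. Each library of a group is a separate mouse. Mice are named by genotype and animal number, such as cKO-126. Total counts ranged from 10905806 to 45016322 per library, with the lowest median, 14158795, in injured *Lepr*-ctrl nerves at 4 wpc, so levels are given as CPM, counts per 1000000 counts of the library after scaling of its total by TMM.

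*Lepr* itself was counted in every library. It was at 9.38 ± 1.68 CPM (SD, n = 5) in *Lepr*-ctrl and 10.2 ± 4.13 CPM (n = 6) in *Lepr*-cKO healthy nerves at 2 wpc, and at 53.3 ± 17.7 and 69.7 ± 33.0 CPM (n = 5 each) in injured nerves. At 4 wpc it was at 6.63 ± 0.633 and 8.31 ± 2.13 CPM (n = 5 each) in healthy and at 44.6 ± 21.1 and 30.6 ± 5.23 CPM (n = 4 each) in injured nerves. No genotype difference passed the test (edgeR adjusted p from 0.362 to 1). The deletion removes exon 1 and the counts cover the whole gene, so these values do not check the genotype labels.

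One library stood apart from all others. The injured nerve of cKO-126 at 2 wpc held 51260 CPM of 12 skeletal muscle genes, while the other 38 libraries held 8.67 to 70.9 CPM. It also had the highest level of 8 of the 10 adipocyte genes. Values of the 10 genes at 2 wpc whose sign rests on it are given with and without it. The part of the muscle markers in these values was not tested.

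The sequence just upstream of the transcription start is shown for *Adipoq* and *Cidec*, a hormone and a droplet gene of the 5 that varied together, and for *Lep*, the hormone gene of the deleted receptor. The windows are 250 bases from RefSeq on GRCm38.p6, read 5′ to 3′ on the gene's strand: chr16:23146286-23146535 on the plus strand for *Adipoq*, chr6:113434765-113435014 on the minus strand for an inner start of *Cidec*, and chr6:29059971-29060220 on the plus strand for *Lep*. Capitals mark the letters TTGCNNAA, a core that C/EBP factors can bind. Of the 2 *Cidec* windows, the one shown was chosen because it holds these letters. The other, chr6:113435761-113436010, does not hold them.
Adipoq: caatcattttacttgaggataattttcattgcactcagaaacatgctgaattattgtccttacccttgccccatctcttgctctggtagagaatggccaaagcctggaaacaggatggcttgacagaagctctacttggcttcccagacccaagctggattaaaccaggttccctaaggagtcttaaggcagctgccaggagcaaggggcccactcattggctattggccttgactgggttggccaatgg
Cidec: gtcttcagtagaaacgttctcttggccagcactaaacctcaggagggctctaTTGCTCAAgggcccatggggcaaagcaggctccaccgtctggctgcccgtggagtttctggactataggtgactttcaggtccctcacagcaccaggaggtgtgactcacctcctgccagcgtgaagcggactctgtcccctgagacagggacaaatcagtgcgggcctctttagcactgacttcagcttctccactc
Lep: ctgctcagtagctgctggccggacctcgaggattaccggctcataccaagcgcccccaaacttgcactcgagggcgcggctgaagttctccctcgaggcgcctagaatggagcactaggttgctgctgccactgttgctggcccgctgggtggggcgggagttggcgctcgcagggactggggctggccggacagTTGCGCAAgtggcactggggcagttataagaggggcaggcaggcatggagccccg
RefSeq windows were found for 9 of the 10 genes, and *Fabp4* is named only. With *Lep* and alternative starts there were 14 windows, of which 4, belonging to *Cidec*, *Lep*, *Plin1* and *Pparg*, held TTGCNNAA on either strand, against 9.56% of 32851 mouse promoter windows of the same length. Copies of AGGTCA in tandem with 1 base between them, the element read by PPARγ with its partner RXR, were in 0 of the 14 and in 0.0335% of all windows, on either strand. A single AGGTCA was in 2 of 14 against 14%, both of *Pparg*, and TATAAA was in 1 of 14 against 12.4%. These are matches of letters in a short window and say nothing of binding.

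Of the 10 genes, 5 formed a group that was near zero in one set of libraries and plainly counted in another. *Adipoq*, *Cfd* and *Retn* encode secreted proteins, and *Plin1* and *Cidec* encode proteins of the lipid droplet. In the 10 healthy *Lepr*-ctrl nerves none of the 5 reached 1 CPM. *Adipoq* reached 1 CPM in 7 of 11 healthy *Lepr*-cKO nerves, 4 of 9 injured *Lepr*-ctrl nerves and 5 of 9 injured *Lepr*-cKO nerves, 16 of 39 libraries in all. *Cidec* and *Cfd* reached it in the same 16 libraries, *Retn* in 15 of these 16 and *Plin1* in 13 of them. The same libraries were high whichever of the 5 genes was read.

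*Adipoq*, on chromosome 16 from 23146536 to 23158028 of GRCm38, encodes adiponectin, an adipocyte hormone that raises insulin sensitivity. In healthy *Lepr*-ctrl nerves it had 1 count in ctrl-120, 2 in ctrl-123 and 0 in the other three at 2 wpc, and 0 in all 5 at 4 wpc. In healthy *Lepr*-cKO nerves at 2 wpc it was at 23.7 CPM in cKO-138, 14.7 in cKO-135, 1.11 in cKO-125, 0.12 in cKO-136, 0.0641 in cKO-126 and 0.0273 in cKO-128. At 4 wpc it was at 11.5 CPM in cKO-175, 7.59 in cKO-179, 1.25 in cKO-177, 1.17 in cKO-176 and 0.117 in cKO-169. A pair of nerves at each time was far above the others of its group, and 4 of 11 stayed under 1 CPM. The group means were 6.62 ± 10.2 CPM (SD, n = 6) and 4.33 ± 4.995 CPM (n = 5), at least 69.8-fold and at least 40.1-fold higher than in *Lepr*-ctrl when each *Lepr*-ctrl library is set to a floor of 3 counts. The SD exceeded the mean at both times.

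Injured nerves were split in the same way. In *Lepr*-ctrl at 2 wpc *Adipoq* was at 17.9 CPM in ctrl-130, 14.6 in ctrl-131, 0.237 in ctrl-144, 0.183 in ctrl-147 and 0 in ctrl-123. In *Lepr*-cKO at 2 wpc it was at 109 CPM in cKO-126, 10.2 in cKO-138, 0.147 in cKO-128, 0.0576 in cKO-125 and 0 in cKO-135. Each genotype had a pair of high nerves, and cKO-126 was the highest library of the series. At 4 wpc it was at 26.5 CPM in ctrl-171, 17.9 in ctrl-170 and 0 in ctrl-173 and ctrl-178, against 32.5 CPM in cKO-176, 29.3 in cKO-177, 7.38 in cKO-169 and 0.274 in cKO-175. No injured *Lepr*-ctrl nerve lay between 0.237 and 14.6 CPM.

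**Figure D1:**
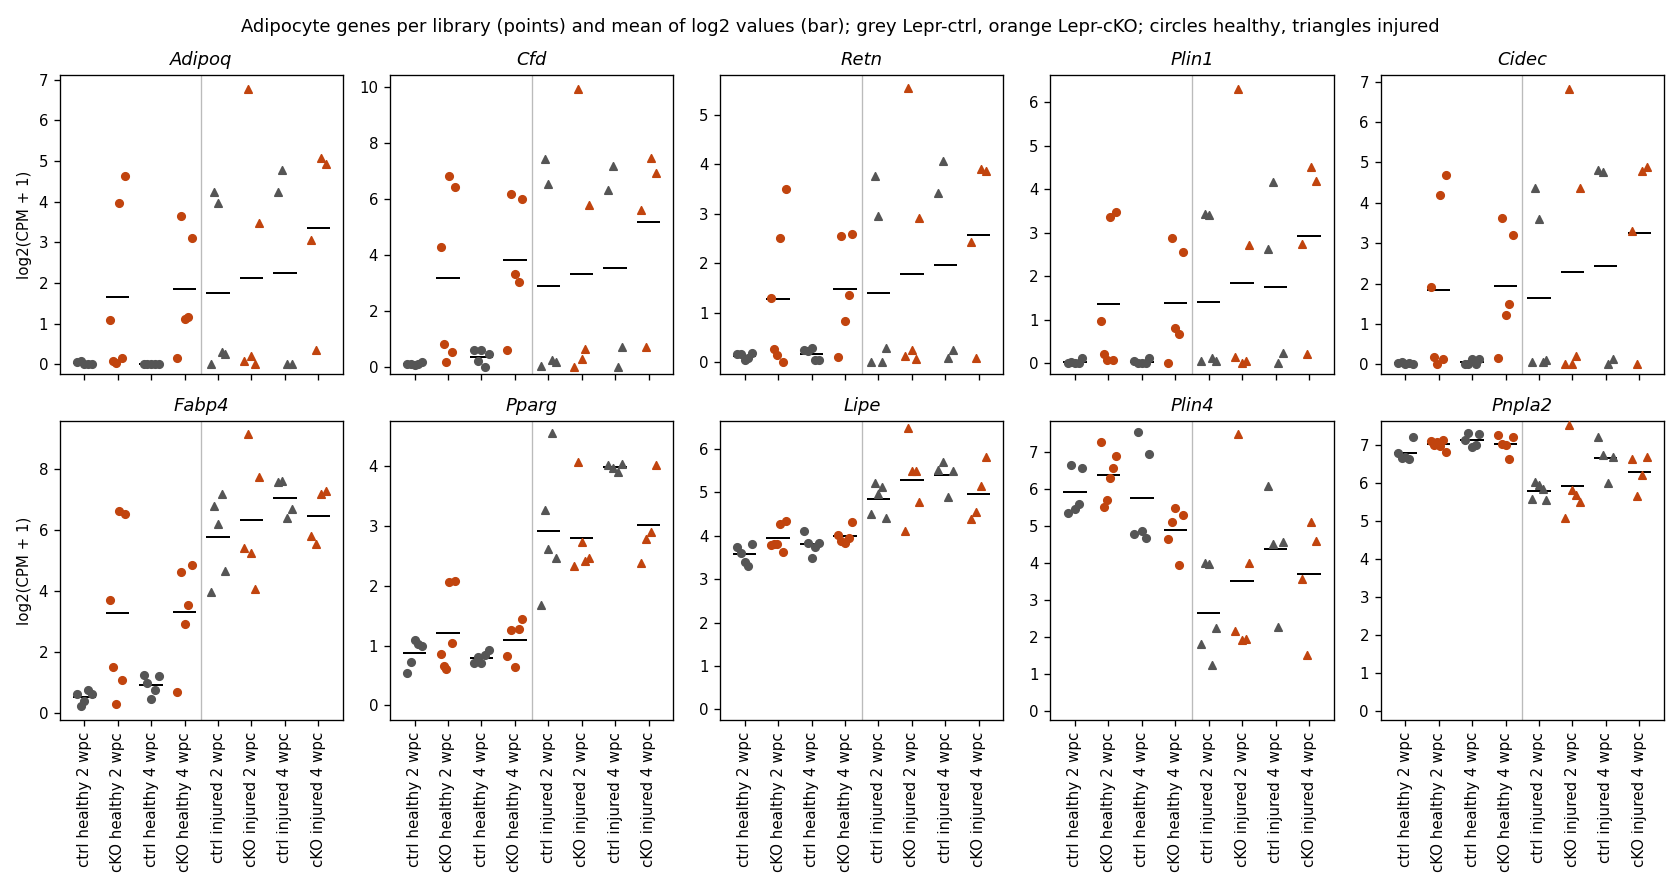
Level of each of the 10 genes as log2(CPM + 1) in every library, 1 panel per gene, with the 8 groups along the horizontal axis. Grey stands for *Lepr*-ctrl, orange for *Lepr*-cKO, circles for healthy and triangles for injured nerves, and the bar is the mean of the log2 values. *Adipoq*, *Plin1*, *Cidec*, *Cfd* and *Retn* lie at the bottom in all 10 healthy *Lepr*-ctrl nerves and split into low and high libraries in every other group, whereas *Pnpla2* and *Lipe* are counted in all 39.

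*Cfd*, on chromosome 10 from 79890853 to 79892655, encodes adipsin, the complement protease factor D. Its *Lepr*-ctrl healthy nerves ran from 0 to 0.537 CPM. Healthy *Lepr*-cKO nerves reached 112 CPM in cKO-135, 86.5 in cKO-138 and 18.8 in cKO-125 at 2 wpc, and 71.9 in cKO-175, 62.9 in cKO-179, 9.05 in cKO-176 and 7.21 in cKO-177 at 4 wpc. The remaining 4 were between 0.137 and 0.802 CPM. The genotypes did not overlap, but by a narrow margin, with the highest *Lepr*-ctrl nerve at 0.134 and the lowest *Lepr*-cKO nerve at 0.137 CPM at 2 wpc, and 0.537 against 0.546 CPM at 4 wpc. In injured nerves, *Lepr*-ctrl ran from 0 to 172 CPM and *Lepr*-cKO from 0 to 986 CPM, the highest again in cKO-126. The mean of healthy *Lepr*-cKO nerves was at least 385-fold above *Lepr*-ctrl at 2 wpc, and the fitted log2 fold change was 6.66 at 4 wpc.

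*Retn*, on chromosome 8 from 3655770 to 3660110, encodes resistin, a hormone of mouse adipocytes. It ran from 0.0227 to 0.224 CPM in healthy *Lepr*-ctrl nerves, reached 10.3 CPM in cKO-138 and 5.01 in cKO-179 among healthy *Lepr*-cKO nerves, 15.9 in ctrl-171 among injured *Lepr*-ctrl nerves and 45.4 in cKO-126. *Plin1*, on chromosome 7 from 79720218 to 79732903, encodes perilipin 1, which coats the droplet and holds back lipolysis. It was at most 0.0971 CPM in healthy *Lepr*-ctrl nerves, and its highest values were 10.2 CPM in cKO-138 (healthy), 16.8 in ctrl-171 (injured) and 78.4 in cKO-126 (injured). *Cidec*, on chromosome 6 from 113424634 to 113435760, encodes a protein that fuses small droplets into large ones. It was at most 0.0971 CPM in healthy *Lepr*-ctrl nerves too, with 25.0 CPM in cKO-138 (healthy), 27.0 in ctrl-170 (injured) and 113 in cKO-126 (injured). For *Cidec* the mean of healthy *Lepr*-cKO nerves was at least 79.3-fold and at least 42.2-fold above *Lepr*-ctrl at 2 and 4 wpc, and for *Plin1* at least 36.3-fold and at least 23.4-fold.

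The leptin gene *Lep*, which is not one of the 10, was counted in the same libraries at a lower level. It had 2 counts in all 10 healthy *Lepr*-ctrl libraries together, and reached 1 CPM in 3 of 11 healthy *Lepr*-cKO, 4 of 9 injured *Lepr*-ctrl and 4 of 9 injured *Lepr*-cKO nerves. All 11 of these were among the 16 libraries with *Adipoq* at 1 CPM or more, and the highest was 10.8 CPM in cKO-126. *Lep* had a higher mean in injured than in healthy *Lepr*-ctrl nerves, at least 8.61-fold at 2 wpc and at least 17.5-fold at 4 wpc. It passed the threshold in edgeR at both times, but these calls are no separate evidence. *Lep* was high in the same libraries as the genes above, which this contrast helped to choose. The means rest on 2 of 5 and 2 of 4 injured nerves, and without ctrl-130 the call at 2 wpc was lost (edgeR adjusted p = 0.0629). For the same reason no test of *Lep* between genotypes in healthy nerves is given. Between genotypes in injured nerves at 2 wpc *Lep* had a log2 fold change of 1.87. Its counts there came almost only from ctrl-130, ctrl-131, cKO-126 and cKO-138, with at most 1 count in each other nerve. Nothing is read from that test and its p-value is not given. At 4 wpc *Lep* did not pass the test (log2 fold change 0.58, edgeR adjusted p = 0.876).

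The other five members did not share this pattern, so the 10 genes are not 1 group by their levels. *Fabp4* encodes the fatty acid carrier of adipocytes, which macrophages and endothelial cells also make. It lies on chromosome 3 from 10204088 to 10208576. It was at 0.155 to 1.37 CPM in healthy *Lepr*-ctrl and 0.219 to 97.5 CPM in healthy *Lepr*-cKO nerves, and in injured nerves it was never near zero, with 14.6 to 193 CPM in *Lepr*-ctrl and 15.6 to 560 CPM in *Lepr*-cKO. The injured nerves of ctrl-173 and ctrl-178, with *Adipoq* at 0, had *Fabp4* at 83.7 and 101 CPM. *Pparg*, on chromosome 6 from 115360951 to 115490399, encodes the nuclear receptor that drives adipocyte differentiation and also acts in macrophages. It was at 0.455 to 1.14 CPM in healthy *Lepr*-ctrl, 0.519 to 3.25 in healthy *Lepr*-cKO, 2.21 to 22.6 in injured *Lepr*-ctrl and 4.03 to 15.9 in injured *Lepr*-cKO nerves. Its highest library, ctrl-144 at 22.6 CPM, had *Adipoq* at only 0.237 CPM. Both genes were thus higher in each injured library than in each healthy *Lepr*-ctrl library, including those without *Adipoq*.

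*Lipe* and *Pnpla2* encode the lipases of lipolysis, hormone-sensitive lipase and adipose triglyceride lipase, and *Plin4* encodes a further droplet coat protein. *Lipe*, on chromosome 7 from 25379527 to 25398710, ran from 8.89 to 16.2 CPM in healthy *Lepr*-ctrl, 11.4 to 19.2 in healthy *Lepr*-cKO, 20.4 to 50.5 in injured *Lepr*-ctrl and 16.4 to 88.5 in injured *Lepr*-cKO nerves. *Pnpla2*, on chromosome 7 from 141455198 to 141460743, ran from 97.2 to 157, 98.1 to 154, 46.2 to 147.1 and 32.6 to 182 CPM in the same order. *Plin4*, on chromosome 17 from 56100591 to 56109803, ran from 24.7 to 183, 14.5 to 154, 1.38 to 67.0 and 1.86 to 176.4 CPM. Injured nerves had mostly more *Lipe* and less *Pnpla2* and *Plin4* than healthy ones. Healthy *Lepr*-ctrl nerves without *Adipoq* held *Plin4* at up to 183 CPM, in ctrl-170.

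**Figure D2:**
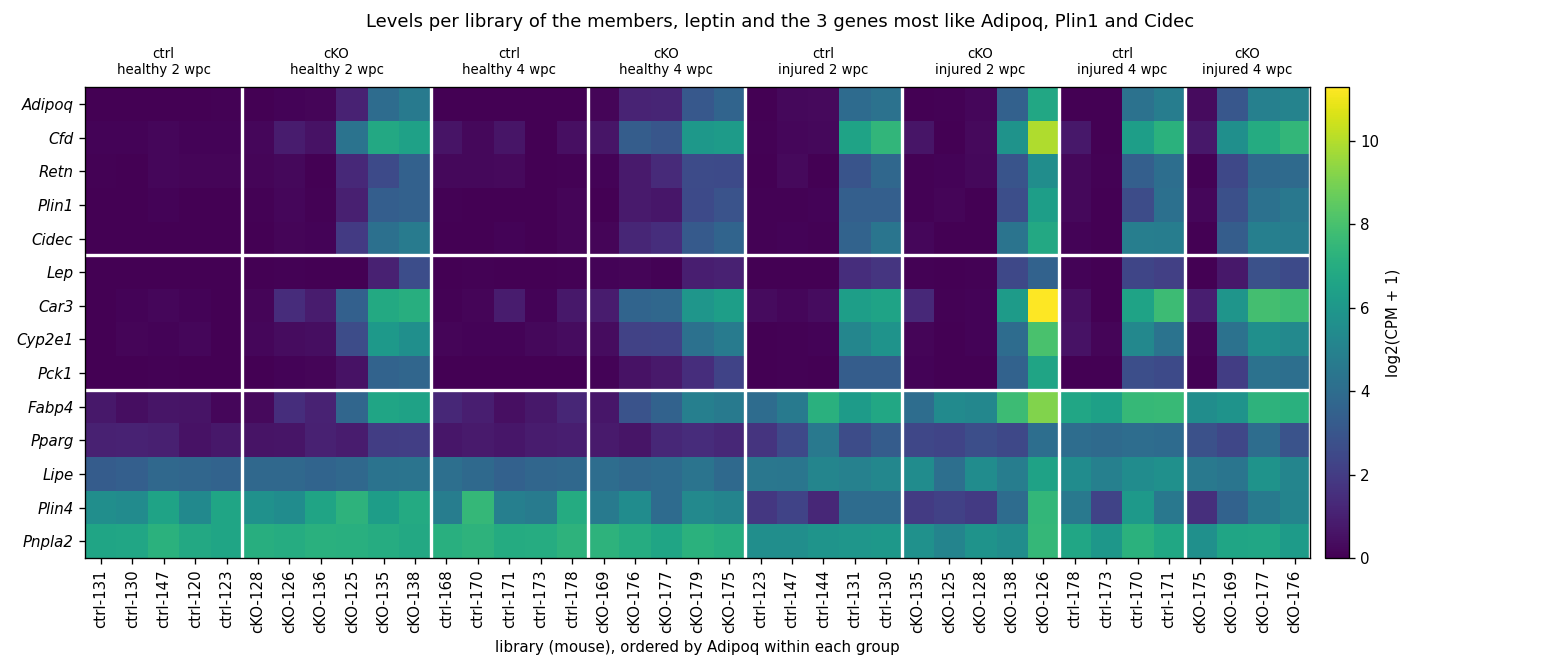
Heat map of log2(CPM + 1) for the 10 genes with *Lep*, *Car3*, *Cyp2e1* and *Pck1* (rows) in the 39 libraries (columns), grouped by genotype, nerve and time and ordered by *Adipoq* within each group. *Lep*, *Car3*, *Cyp2e1* and *Pck1* brighten in the columns in which *Adipoq* does, while *Pnpla2* is bright in all columns and *Fabp4* in all injured columns.

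Between genotypes in healthy nerves, *Pparg*, *Plin4*, *Lipe* and *Pnpla2* had fitted log2 fold changes (cKO over ctrl) far below those of the core genes and *Fabp4*. At 2 wpc the values were 6.27 for *Fabp4*, 4.95 for *Retn*, 0.88 for *Pparg*, 0.48 for *Plin4*, 0.42 for *Lipe* and 0.22 for *Pnpla2*. At 4 wpc they were 4.39 for *Retn*, 3.89 for *Fabp4*, 0.67 for *Pparg*, 0.21 for *Lipe*, -0.10 for *Pnpla2* and -1.31 for *Plin4*. *Fabp4* had 33.8 ± 46.8 CPM (SD, n = 6) in *Lepr*-cKO against 0.440 ± 0.205 (n = 5) in *Lepr*-ctrl nerves at 2 wpc, and 13.8 ± 11.5 against 0.931 ± 0.424 CPM (n = 5 each) at 4 wpc. The median over the 10 genes, with genes at the floor set to their bound, was 5.07 at 2 wpc and, as fitted, 4.14 at 4 wpc, against 0 and 0.01 over all genes tested. Background: 0.00542% of the genes tested, 1 gene, passed the threshold (edgeR adjusted p under 0.05, log2 fold change beyond 1 in either direction) in this comparison at either time. That gene is *Gm49442*, which is not one of the 10 and was named after its values were seen. Of the 10 genes, 1 at 2 wpc and 3 at 4 wpc had CPM ranges that stayed apart between genotypes, where the background was 0.239% and 0.678% of all genes, and nothing is read from these counts since the contrast chose the genes.

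Between injured and healthy nerves of *Lepr*-ctrl mice, the 5 core genes were higher in the means after injury. *Adipoq* was at least 69.4-fold higher at 2 wpc and at least 103-fold at 4 wpc, *Cidec* at least 65.3-fold and at least 124-fold, and *Plin1* at least 41.2-fold and at least 51.3-fold. *Cfd* was at least 558-fold higher at 2 wpc, with a log2 fold change of 7.55 at 4 wpc, and *Retn* had log2 fold changes of 5.44 and 5.76. These means rest on ctrl-130 and ctrl-131 at 2 wpc and on ctrl-170 and ctrl-171 at 4 wpc. The log2 fold changes at 2 and 4 wpc were 7.38 and 7.23 for *Fabp4*, 3.32 and 4.30 for *Pparg*, 1.37 and 1.68 for *Lipe*, -3.08 and -1.42 for *Plin4*, and -1.02 and -0.43 for *Pnpla2*. Levels of injured and healthy nerves stayed apart for 6 of the 10 genes at 2 wpc and 3 at 4 wpc, beside 47.9% and 54.8% of all genes, and of all genes 34.1% and 36% passed the threshold. With genes at the floor set to their bound, the median of the 10 was 5.40 at 2 wpc and 5.72 at 4 wpc, against 0.08 and 0.02 over all genes.

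In *Lepr*-cKO mice, healthy nerves already held *Adipoq* at 1 CPM or more in 7 of 11 libraries. The mean differences between injured and healthy nerves were smaller there for the 5 core genes. At 2 wpc the log2 fold changes (injured over healthy) were 1.85 for *Adipoq*, 2.29 for *Plin1*, 1.81 for *Cidec*, 2.51 for *Cfd* and 1.90 for *Retn*. At 4 wpc they were 1.99, 2.13, 1.80, 1.52 and 1.68. Without the injured nerve of cKO-126, the values at 2 wpc were -1.31, -1.21, -0.58, -1.36 and -0.67, so their sign rests on that nerve. *Fabp4* had 2.35 and 2.83, *Pparg* 2.13 and 2.73, *Lipe* 1.58 and 1.12, *Pnpla2* -0.82 and -0.70, and *Plin4* -1.16 and -0.83. Without cKO-126 the values at 2 wpc were 1.19 for *Fabp4*, 1.57 for *Pparg*, 1.17 for *Lipe*, -1.48 for *Pnpla2* and -3.86 for *Plin4*. The median of the 10 was 1.88 at 2 wpc and 1.74 at 4 wpc, against 0.10 and 0.06 over all genes, and it ran from -0.94 to 2.86 at 2 wpc when single libraries were left out, being lowest without cKO-126, and was -1.15 in a fit with the mouse as a block. Injured and healthy nerves stayed apart for 1 of the 10 genes at 2 wpc and 3 at 4 wpc, beside 41.4% and 41.9% of all genes, and of all genes 34.3% and 27.6% passed the threshold. The comparisons of genotypes and of nerves share their libraries, so these values are not separate evidence.

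Whether injured nerves of both genotypes differed was not used to choose the genes and could be tested. With the injured nerves of one time alone, 6 of the 10 genes passed the filter on low counts at 2 wpc and all 10 at 4 wpc. None of these 6 was called at 2 wpc and none of the 10 at 4 wpc. The background was 0.569% and 0.45% of the genes tested, the former falling to 0.00542% without cKO-126. At 2 wpc all of these background genes were higher in *Lepr*-cKO nerves, and at 4 wpc 0.363% of all genes were higher and 0.0868% lower. At 2 wpc 2 of the 6, *Plin4* and *Lipe*, had an unadjusted p under 0.05 by edgeR, beside 6.44% of all genes. At 4 wpc 0 of the 10 did, beside 19.9%. DESeq2 called 0 of the 6 at 2 wpc and 0 of the 10 at 4 wpc. With the injured nerves at 2 wpc alone, *Adipoq*, *Plin1*, *Cidec* and *Retn* did not pass the filter on low counts. Their tests at 2 wpc exist only through the other groups, so nothing is read from them and their p-values are not given. Their log2 fold changes and SEs at 2 wpc, and medians that include them, are a description. The errors were wide. *Adipoq* had a log2 fold change (cKO over ctrl) of 1.85 ± 1.59 (SE) at 2 wpc and 0.64 ± 1.75 (edgeR adjusted p = 0.875) at 4 wpc. At 2 wpc *Plin4* had 2.41 ± 0.902 (edgeR adjusted p = 0.485), *Plin1* 2.09 ± 1.46 and *Cidec* 2.08 ± 1.52. The median of the 10 was 1.63 at 2 wpc and -0.05 at 4 wpc. Without cKO-126 it was -0.61 at 2 wpc. With single libraries left out, it ran from -0.61 to 2.645 at 2 wpc and from -0.358 to 0.328 at 4 wpc. For each of the 10 genes the levels of both genotypes overlapped at both times, as they did not in 0.233% and 5.68% of all genes. *Pparg* was the only one of the 10 with a negative value at 2 wpc. It had -0.32 ± 0.485 (edgeR adjusted p = 0.997) at 2 wpc and -0.90 ± 0.549 (edgeR adjusted p = 0.361) at 4 wpc. In that comparison at 4 wpc all 9 macrophage markers, given below, were lower too (median -0.78, 0 called). So were all 8 endothelial markers (median -0.44, 0 called) and 8544 of all 18442 genes. With SEs above 1 on the log2 scale for the 5 core genes, differences of several fold in either direction were not detectable with these numbers of nerves.

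For 8 of the 10 genes the direction at 2 wpc was set by 1 library, which was cKO-126 for all of them but *Pparg*. Without the injured nerve of cKO-126, the log2 fold change became -1.32 for *Adipoq*, -1.42 for *Plin1*, -0.32 for *Cidec*, -1.92 for *Cfd*, -1.17 for *Retn*, -0.31 for *Plin4* and -0.26 for *Pnpla2*. *Lipe* (0.21) and *Fabp4* (0.06) stayed positive and *Pparg* negative, and *Pparg* had 0.42 without ctrl-144. Beside these values, the 11 muscle genes that passed the filter were all called higher in injured *Lepr*-cKO nerves at 2 wpc (median 9.54 on the log2 scale), and *Acta1*, the most abundant, was at 10400 CPM in cKO-126. The other 15 libraries with *Adipoq* at 1 CPM or more had muscle sums of 8.67 to 57.6 CPM.

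The healthy and the injured nerve of the same mouse were compared next. Of the 17 mice with both, *Adipoq* reached 1 CPM in both nerves of 3 (cKO-138, cKO-176 and cKO-177), in the healthy nerve alone of 3 (cKO-125, cKO-135 and cKO-175), in the injured nerve alone of 6 and in neither of 5. cKO-135 had 14.7 CPM in the healthy and 0 in the injured nerve, cKO-175 had 11.5 and 0.274 CPM, and cKO-126 had 0.0641 and 109 CPM. Of the deviations of log2 CPM from the group means, Pearson's r was -0.24 (two-sided permutation test with 100000 resamples, p = 0.36) and Spearman's rho -0.37 (permutation p = 0.145), n = 17 mice. In the 8 *Lepr*-ctrl mice the healthy nerve was at or near 0, and over the 9 *Lepr*-cKO mice alone r was -0.30 (permutation p = 0.432). Without cKO-138 and cKO-135, the 2 mice farthest from the median on the healthy side, r was -0.34 (permutation p = 0.221). Leaving out 1 mouse at a time, it ran from -0.43 without cKO-138 (permutation p = 0.0924) to -0.03 without cKO-126 (permutation p = 0.901). Within the mice at 2 wpc it was -0.20 (permutation p = 0.596) and within those at 4 wpc -0.34 (permutation p = 0.485). A mouse high in one nerve was thus not shown to be high or low in the other. By the sex-linked genes of the libraries, *Adipoq* reached 1 CPM in 5 of 14 libraries from males and 11 of 25 from females.

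**Figure D3:**
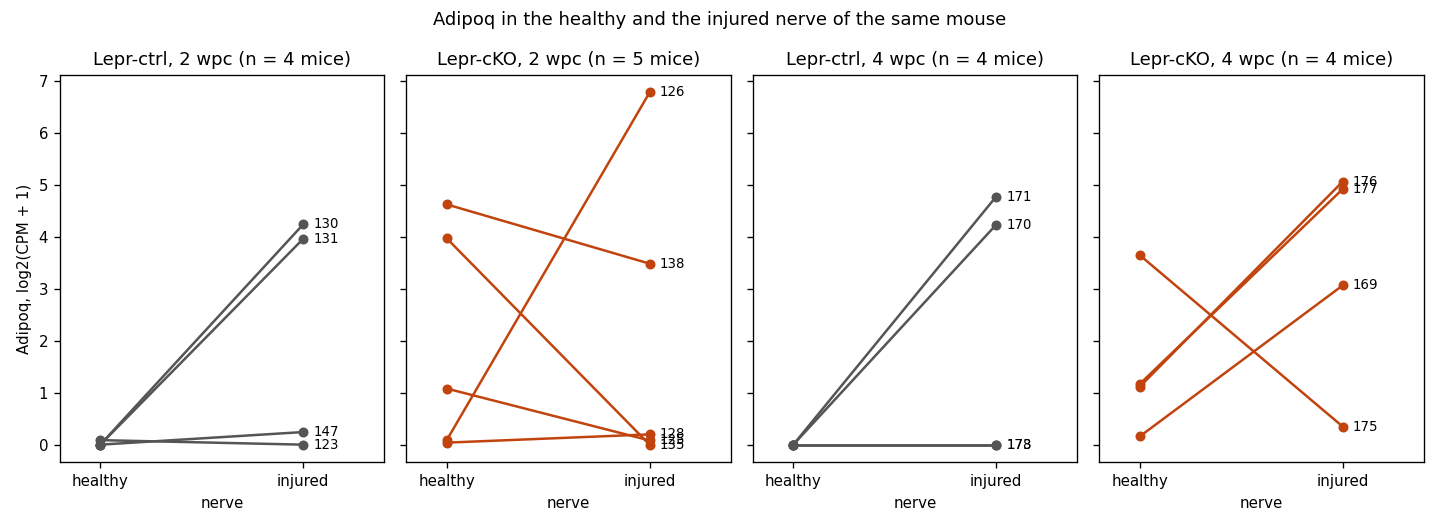
*Adipoq* as log2(CPM + 1) in the healthy and the injured nerve of each of 17 mice, a line joining both nerves of a mouse, in 4 panels by genotype and time (4 and 5 mice at 2 wpc, 4 and 4 at 4 wpc). All 8 *Lepr*-ctrl lines start at the bottom and 4 of them climb, while the *Lepr*-cKO lines cross, with 3 mice at 1 CPM or more in the healthy nerve alone.

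Across all 39 libraries, the 5 core genes moved together within their groups. Of deviations of log2 CPM from the group mean, their 10 pairs had Pearson's r from 0.963 to 0.98, with a median of 0.97. With *Adipoq* and its 4 partners, *Fabp4* had r from 0.71 to 0.77 and *Plin4* from 0.73 to 0.77, whereas *Lipe* had 0.53 to 0.58, *Pnpla2* 0.52 to 0.57 and *Pparg* 0.42 to 0.52. These are descriptions over libraries of which 17 pairs share a mouse. In the 14 libraries with at least 30 *Adipoq* counts, *Cidec* had 0.767 to 2.5 counts per *Adipoq* count (median 1.07), *Plin1* 0.288 to 0.864 (median 0.633), *Retn* 0.321 to 1.3 (median 0.501) and *Cfd* 3.65 to 16.9 (median 6.27). These ratios of raw counts, not corrected for gene length, compare libraries and not genes. They spread over a few fold for the 5 core genes, but *Pnpla2* ran from 1.66 to 122 per *Adipoq* count.

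**Figure D4:**
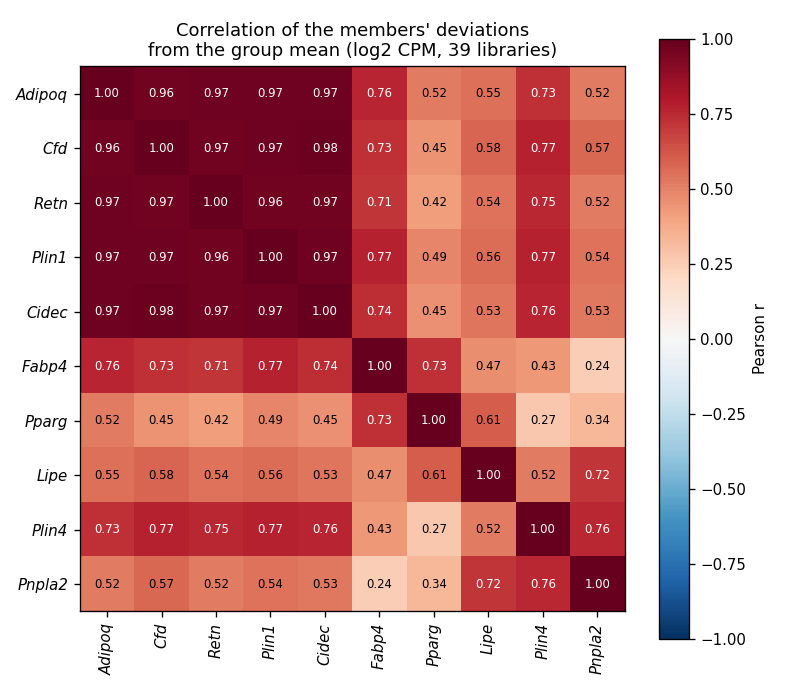
Pearson's r between the 10 genes, of the deviations of log2 CPM from the group mean over 39 libraries. *Adipoq*, *Plin1*, *Cidec*, *Cfd* and *Retn* form a block with r of 0.963 or more, and *Pparg*, *Lipe* and *Pnpla2* stand outside it.

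Outside the 10, the genes whose deviations were most like the mean of *Adipoq*, *Plin1* and *Cidec*, among those with a mean log2 CPM above 1, were *Pck1* (r = 0.985), *Cyp2e1* (0.982) and *Car3* (0.977). They encode phosphoenolpyruvate carboxykinase, a cytochrome P450 and carbonic anhydrase 3, all abundant in fat but not particular to it, and carbonic anhydrase 3 is also a major protein of skeletal muscle. In cKO-126, with its high muscle sum, *Car3* was at 2493 CPM. *Dpt* (0.894), encoding the matrix protein dermatopontin, and *Glb1l2* (0.876) followed, with *Thrsp* (0.856), *Ces1d* (0.82), *Mlxipl* (0.813), *Gpat3* (0.813) and *Ghr* (0.798). *Thrsp* and *Mlxipl* take part in the control of fat synthesis, *Gpat3* in that of triglyceride, *Ces1d* hydrolyses lipid esters, and *Ghr* is the growth hormone receptor. Over 18442 genes the median r was 0.013, and 36 genes outside the 10 exceeded 0.8. Lower in count but as close were *Acvr1c* (0.967), *Lep* (0.958), *Lgals12* (0.956), *Adig* (0.946) and *Adrb3* (0.941), the β3-adrenergic receptor of fat.

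A further 75 adipocyte genes in 8 lists were followed beside the 10, and 72 passed the filter. Between genotypes in healthy nerves edgeR called 0 of 72 at either time, with 12 and 7 at an unadjusted p under 0.05, which is 16.7% and 9.72% of the 72 against 1.2% and 1.88% of all genes. DESeq2 called 2 at 2 wpc, *Car3* (log2 fold change 9.17) and *Cyp2e1* (8.04), and 1 at 4 wpc, *Pck1*, beside 0.0488% and 0.0542% of all genes. These genes followed the core genes, which this contrast helped to choose. Their p-values are therefore not given, and nothing is read from these counts. *Pck1* had 0 counts in all 5 healthy *Lepr*-ctrl nerves then and 2 to 105 counts in *Lepr*-cKO, so the DESeq2 fold and p for it are not given. The median log2 fold change of the 72 was 0.09 at 2 wpc and 0.03 at 4 wpc. Over all genes it was 0 and 0.01. By list, the medians were highest for lipolysis (1.13 and 0.62) and for other adipocyte-rich genes (1.00 and 0.64). Both lists hold genes that followed the core genes, so nothing is read from these medians.

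In injured nerves the genotypes differed in 2 of 72 genes at 2 wpc (median 0.35) and 0 at 4 wpc (median 0.16), beside 0.569% and 0.45% of all genes, and 1 and 2 were called by DESeq2, beside 0.146% and 0.71%. At an unadjusted p under 0.05 by edgeR there were 17 and 16 of 72, which is 23.6% and 22.2% against 6.44% and 19.9% of all genes. Without cKO-126, 0 of 72 were called at 2 wpc and their median was -0.11. *Slc2a4*, the insulin-responsive glucose transporter of fat and muscle, had a log2 fold change of 2.69 ± 0.654 (SE, edgeR adjusted p = 0.0404), and *Gpihbp1*, which holds lipoprotein lipase on capillary endothelium, had 1.98 ± 0.453 (edgeR adjusted p = 0.0218). *Slc2a4* was at 152 CPM in cKO-126 and 3.64 to 5.68 CPM in the other four *Lepr*-cKO nerves, and its log2 fold change without cKO-126 was -0.20. *Gpihbp1* was at 10.3 CPM in cKO-126, 4.72 in cKO-138 and 0.551 to 1.71 in the others, with *Lepr*-ctrl at 0.610 to 1.22 CPM, and had 1.14 without cKO-126 (edgeR adjusted p = 0.902). *Slc2a4* also lost its call without any one of the 5 injured *Lepr*-ctrl nerves, and *Gpihbp1* without ctrl-123, ctrl-144 or ctrl-147 (edgeR adjusted p of 0.058 to 0.145 in these fits). By DESeq2 alone, *Nnat* (1.59, DESeq2 adjusted p = 0.0418) and *Dgat2* (1.395, DESeq2 adjusted p = 0.0495), the last-step enzyme of triglyceride synthesis, were called at 4 wpc.

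After injury, genes among the 72 changed in both directions. In *Lepr*-ctrl nerves 21 were called higher and 22 lower at 2 wpc, and 23 and 23 at 4 wpc, beside 19.8% higher and 14.3% lower of all genes at 2 wpc and 20.1% and 15.9% at 4 wpc. In *Lepr*-cKO nerves 18 were called higher and 16 lower at 2 wpc, and 11 and 13 at 4 wpc, beside 20.9% and 13.4%, and 16.8% and 10.8%. The median log2 fold changes were 0.05, 0.09, 0.23 and -0.001 in the same order. With the mouse as a block, the median was -0.62 in *Lepr*-cKO nerves at 2 wpc. With only the libraries compared, it was -0.38 in *Lepr*-ctrl nerves at 2 wpc. Without cKO-126, the *Lepr*-cKO nerves at 2 wpc gave 10 higher and 25 lower, with a median of -0.69. Of all 18394 genes in that fit, 3736 were higher and 2626 lower, with a median of 0.08. Whether injury acted differently by genotype was tested as an interaction in edgeR, and 0 of 72 passed (lowest edgeR adjusted p 0.929 at 2 wpc and 0.384 at 4 wpc). Of all genes 0 passed at either time as well. Among the 72, 9 and 12 had an unadjusted p under 0.05 by edgeR. Nothing is read from these 2 counts, since no share of all genes stands beside them.

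By role, 4 of 10 transcription factors were called higher and 1 lower in each of the 4 comparisons, where of all genes 16.8% to 20.9% were higher and 10.8% to 15.9% lower. No test compared the lists with other genes. Of lipolysis genes none was called lower, with 4 of 7 higher in *Lepr*-ctrl nerves at 2 wpc, 6 at 4 wpc, and 2 and 0 in *Lepr*-cKO nerves. Of 16 genes that synthesise triglyceride and fatty acids 8, 9, 7 and 7 were lower and 2, 3, 3 and 1 higher. One of them, *Elovl6*, had a mean of 323.5 CPM in healthy *Lepr*-ctrl nerves at 4 wpc, where *Adipoq* had 0 counts. The part of other cells of the nerve in the falls of this and the other lists was not tested. Of 5 genes of glucose uptake and insulin response 3, 2, 2 and 2 were lower and 0, 0, 1 and 0 higher. Fatty acid uptake (7 genes) had 3, 3, 2 and 3 higher and 2, 4, 1 and 1 lower, and adipokines (9 genes) 2, 1, 1 and 1 higher and 3, 3, 2 and 1 lower. Of 8 tested lipid droplet genes 2 were higher in each comparison and 2, 1, 0 and 0 lower, and of 10 other adipocyte-rich genes 4, 4, 3 and 0 were higher and 3, 3, 3 and 1 lower. Without cKO-126, the *Lepr*-cKO counts at 2 wpc became 3 higher and 1 lower for transcription factors, 1 and 0 for lipolysis, 1 and 9 for synthesis, 0 and 3 for glucose uptake, 2 and 3 for fatty acid uptake, 1 and 3 for adipokines, 2 and 3 for lipid droplet genes and 0 and 3 for other adipocyte-rich genes, whose median log2 fold change went from 1.30 to -1.25.

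Of those of the 72 that were called and averaged above 1 in log2 CPM, the ones that rose most in *Lepr*-ctrl nerves were *Car3*, *Cyp2e1* and *Pck1*. At 2 wpc *Car3* had a log2 fold change of 8.81, *Cyp2e1* 7.77 and *Pck1* was at least 38.1-fold higher, and at 4 wpc they had 7.88, 6.47 and at least 23.8-fold. The calls of these 3 genes are no separate evidence. They followed the core genes, which this contrast helped to choose, and were near zero in healthy *Lepr*-ctrl nerves. These means rest on the libraries with *Adipoq* at 1 CPM or more. At 2 wpc *Cyp2e1* was at 53.8 CPM in ctrl-130 and 35.6 in ctrl-131 and at most 0.0949 in the other three injured nerves, and at 4 wpc it was at 38.0 CPM in ctrl-170 and 18.6 in ctrl-171 and at most 0.469 in the other two. *Car3* and *Pck1* were split in the same way. In a fit with the mouse as a block these 3 genes missed the threshold at 4 wpc (edgeR adjusted p = 0.0558, 0.094 and 0.0787). *Pck1* also missed it without the injured nerve of ctrl-170 (edgeR adjusted p = 0.0617) or of ctrl-171 (edgeR adjusted p = 0.0619), and *Cyp2e1* without that of ctrl-170 (edgeR adjusted p = 0.0587). *Sncg*, encoding γ-synuclein of fat and neurons, fell at 2 wpc (-3.80, edgeR adjusted p = 6.73e-15) and at 4 wpc (-2.90). *Irs1*, the insulin receptor substrate, fell too (-3.37 and -2.87), as did *Me1*, the malic enzyme of lipogenesis (-2.78 at 2 wpc), and *Elovl6*, a fatty acid elongase (-2.86 at 4 wpc).

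In *Lepr*-cKO nerves *Cebpb*, an early adipogenic transcription factor also induced in macrophages, rose by 2.497 at 2 wpc (edgeR adjusted p = 1.43e-08) and 2.52 at 4 wpc on the log2 scale. At 4 wpc *Cebpa* (2.93) and *Lpl*, lipoprotein lipase (2.36), rose as well, and *Irs1* (-2.98), *Sncg* (-2.38) and *Gpihbp1* (-2.12) fell. At 2 wpc *Irs1* (-2.88, and -3.73 without cKO-126), *Sncg* (-3.89) and *Me1* (-2.38) fell. *Mlxipl* (3.03, edgeR adjusted p = 0.00255) and *Slc2a4* (2.58) were called higher at 2 wpc, but *Mlxipl* was at 65.5 CPM in cKO-126 and 0.220 to 2.83 CPM in the other injured *Lepr*-cKO nerves, and without cKO-126 their log2 fold changes were -0.71 and -0.31. With the mouse as a block they were -0.40 (edgeR adjusted p = 0.73) and 0.32 (edgeR adjusted p = 0.643).

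The receptors for adiponectin were counted in all nerves. *Adipor1* had group means of 206 to 254 CPM, with no genotype difference past the test (edgeR adjusted p from 0.730 to 1). *Adipor2* fell after injury in *Lepr*-ctrl nerves at 2 wpc (log2 fold change -1.19, edgeR adjusted p = 3.99e-07) and 4 wpc (-1.16, edgeR adjusted p = 2.36e-06) and in *Lepr*-cKO nerves at 4 wpc (-1.05, edgeR adjusted p = 1.56e-05), and at 2 wpc it had -0.98 (edgeR adjusted p = 5.10e-06), within the fold limit, which it passed without cKO-126 (-1.15, edgeR adjusted p = 2.64e-07) and with the mouse as a block (-1.02, edgeR adjusted p = 3.39e-05). *Cdh13*, encoding T-cadherin, which binds adiponectin on vessels, rose in *Lepr*-cKO nerves at 2 wpc (1.86, edgeR adjusted p = 0.00138) and was not called in the other 3 injury comparisons. It was at 72.0 CPM in cKO-126 and 6.97 to 38.4 CPM in the other four, and its log2 fold change without cKO-126 was 1.22 (edgeR adjusted p = 0.0242). With the mouse as a block *Cdh13* was called in *Lepr*-ctrl nerves at 2 wpc as well (1.23, edgeR adjusted p = 0.0194).

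Markers of other cells were read in the same libraries. In healthy nerves at 4 wpc the perineurial genes *Cldn1*, *Lypd2*, *Krt19*, *Msln* and *Kcnj13*, 5 of the 10 perineurial markers chosen after their values were seen, summed to 2.63 to 7.01 CPM in *Lepr*-ctrl (mean 4.74) and 7.95 to 82.1 CPM in *Lepr*-cKO (mean 37.4), with no overlap. The sum of all 10 overlapped, with 1267 to 1415 CPM in *Lepr*-ctrl and 1319 to 1636 CPM in *Lepr*-cKO. At 2 wpc the sums were 42.2 ± 50.4 (SD, n = 5) and 44.7 ± 49.5 CPM (n = 6), and injured groups had means of 92.9 to 169.3 CPM. Of the whole list of 10, with *Itgb4* the most abundant, 0 were called between genotypes in healthy nerves at 4 wpc, beside 0.00542% of all genes. An unadjusted p under 0.05 by edgeR was found for 5 of the 10, beside 1.88% of all genes. The median log2 fold change of the 10 was 1.5. The part of perineurial cells in the adipocyte values was not tested.

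Macrophage markers (9 genes, *Lyz2* the most abundant) had group means of 230 to 341 CPM in healthy and 2128 to 4593 CPM in injured nerves. *Fabp4* and *Pparg* were also higher in injured nerves. Between genotypes 0 of the 9 macrophage genes were called, beside 0.00542% to 0.569% of all genes. In injured nerves at 4 wpc all 9 were lower in *Lepr*-cKO (median log2 fold change -0.78), beside 8544 of all 18442 genes. Of the 9, 5 had an unadjusted p under 0.05 by edgeR, beside 19.9% of all genes. At 2 wpc 8 of 9 were lower in injured nerves (median -0.34), beside 9007 of all genes. In healthy nerves 9 of 9 were lower at 4 wpc (-0.48) and 5 of 9 at 2 wpc (-0.04), beside 8827 and 9195 of all genes. The 8 endothelial markers, given below, were also all lower in injured *Lepr*-cKO nerves at 4 wpc (median -0.44, 0 called). At 2 wpc 7 of those 8 were higher (0.39, 0 called). Among the 18 injured nerves, the macrophage sum was 1068 CPM in cKO-126, the lowest, which had the highest *Fabp4*, 4693 CPM in ctrl-144, which had the highest *Pparg*, 4512 and 4743 CPM in ctrl-173 and ctrl-178, which had *Fabp4* and no *Adipoq*, and 6388 CPM in ctrl-171, the highest. The part of macrophages in the levels of both genes was not tested. Endothelial markers (8 genes, *Vwf* the most abundant) had 591 to 701 and 915 to 1438 CPM, and markers of adipocyte precursors and epineurial fibroblasts (9 genes, *Dcn* the most abundant) 1719 to 3085 CPM over all groups. Of 7 genes of thermogenic fat 4 passed the filter, *Prdm16* was the most abundant, and *Ucp1*, its defining gene, had group means of 0.039 to 0.205 CPM. In bulk tissue, fewer cells of a type and less RNA per cell cannot be told apart, and this holds for each gene above.

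**Figure D5:**
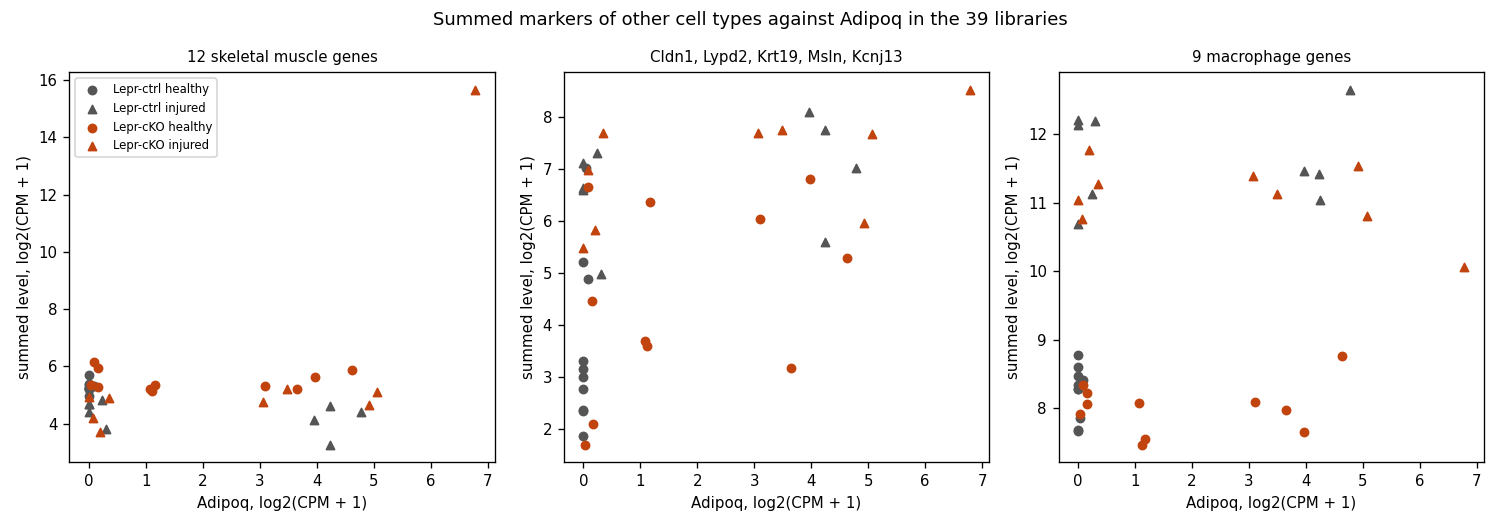
Summed CPM of 12 muscle genes, of *Cldn1*, *Lypd2*, *Krt19*, *Msln* and *Kcnj13*, and of 9 macrophage genes (vertical axes) against *Adipoq* (horizontal axis) in the 39 libraries, on log scales. The muscle sum is at 51260 CPM in the injured nerve of cKO-126 and under 71 CPM in all others, whatever their *Adipoq* level, and the macrophage sum separates injured from healthy nerves and not *Adipoq*-high from *Adipoq*-low libraries.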

How the data were processed

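The deposited values are raw read counts that the authors obtained per gene, for 55573 genes in each library, neither normalized nor filtered. Per the study's methods and the submitters' processing notes, libraries were made with TruSeq, sequenced as single 50-base reads (bcl2fastq 2.20.0.422), aligned to GRCm38 with STAR 2.5 and counted with featureCounts 1.5.0-p1. Whether strand was used and how reads with several alignments were treated is not given in the sources used here, so overlapping and antisense genes are uncertain. Names came from GENCODE M21 on GRCm38, which named 99.8% of the genes.

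Counts were fitted in edgeR 4.0.16 (R 4.3.3, limma 3.58.1, data.table version 1.17.8) over all 39 libraries in 8 groups taken from the sample titles, with TMM normalization, an expression filter by group (minimum count 10, minimum total 15), a quasi-likelihood F test and Benjamini-Hochberg adjustment over 18442 genes. A gene was called at an adjusted p under 0.05 with a log2 fold change beyond 1 in either direction. CPM used TMM-scaled library sizes, and log2 CPM a prior count of 2. Where no library of a group had more than 3 counts, folds were taken between the means in CPM with each of that group's libraries set to 3 counts. Fits were tested on simulated counts. Figures were drawn with matplotlib 3.10.9.

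The 10 genes and all lists were chosen with earlier results of these data known. Named were the 10 genes, *Lep*, the adiponectin receptors, up to 3 other adipocyte genes per direction and comparison (the called genes of largest change, mean log2 CPM above 1), the 10 genes most like *Adipoq*, *Plin1* and *Cidec*, and the most abundant gene of each marker list. Outside this rule stand *Lepr*, *Gm49442*, *Ucp1*, and *Nnat* and *Dgat2*, called by DESeq2 alone. So do the lower-count genes *Acvr1c*, *Lgals12*, *Adig* and *Adrb3*, and the perineurial *Cldn1*, *Lypd2*, *Krt19*, *Msln* and *Kcnj13*. The markers of the labelled tissue are not reported here.

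The 2 nerves of a mouse share its number in the titles, for 17 mice. Over 5000 genes their deviations from the group means correlated with r from -0.116 to 0.567, above 0.1 in 14 of 17 pairs. As nerves of the same animal they were treated as paired in an alternative fit with the mouse as a block. Other alternatives were DESeq2 1.42.0, its size factors, no expression filter, an adjusted p alone, a sex term, only the libraries compared, and each library left out in turn. Member changes after injury, *Lep*, the receptors and the lists without single libraries, and *Lep* and the receptors with the block, were added after seeing the data.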

Additional observations from a re-analysis of the deposited data

Results flagged for a closer look

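Of 88 sets of 1 gene in 1 group of 4 to 6 libraries, 2 held a library farther from the rest than Dixon's 95% limit allows, where chance gives about 1 in 20. Both were the injured nerve of cKO-126 at 2 wpc. *Pnpla2* was at 181.7 CPM there and 32.6 to 55.1 CPM in the other four, a gap of 0.729 of the range against a limit of 0.71. *Pparg* was at 15.85 CPM and 4.03 to 5.62 CPM in the others, a gap of 0.724 of the range. The same library had the muscle sum of 51260 CPM, and the part of muscle RNA in these levels was not tested.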

How the results depend on the processing

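Shares of all genes called are given as percent of the 18442 genes. An adjusted p alone as the threshold gave 0.0108% in healthy nerves between genotypes at 2 wpc, 1.31% in injured nerves at 4 wpc, and 63.9%, 63.6%, 65.1% and 55.3% after injury (*Lepr*-ctrl at 2 and 4 wpc, then *Lepr*-cKO), with 1 other adipocyte gene in injured nerves at 4 wpc and 43 after injury in *Lepr*-cKO at 4 wpc. DESeq2 called 0.0488% and 0.0542% in healthy and 0.146% and 0.71% in injured nerves between genotypes, and 2, 1, 1 and 2 of the other adipocyte genes. Its size factors gave 0.277% in injured nerves at 4 wpc, no filter 1.12% and 0.217% at 2 and 4 wpc, and a sex term 0.222% at 4 wpc and 1 other adipocyte gene at 2 wpc. With only the libraries compared, 5 or 6 of the 10 genes passed the filter and their medians were 0.68 and 0.44 between genotypes in healthy nerves and 1.37 and 3.02 after injury in *Lepr*-ctrl nerves, since most genes near zero were gone. Injured nerves then gave 0 called genes between genotypes at both times, other adipocyte genes included, while 288 and 2190 genes had an unadjusted p under 0.05 by edgeR. With the mouse as a block, pairing both nerves, the median of the 10 genes after injury in *Lepr*-cKO at 2 wpc was -1.15 and *Mlxipl* had -0.40, *Pck1*, *Car3* and *Cyp2e1* at 4 wpc in *Lepr*-ctrl and *Slc2a4* at 2 wpc in *Lepr*-cKO nerves lost their calls, none of the others named for the size of their change did, and *Adipor2* in *Lepr*-cKO and *Cdh13* in *Lepr*-ctrl nerves at 2 wpc gained one.

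Leaving out 1 library at a time gave 0.00542% to 0.0108% in healthy nerves at 2 wpc, 0.00542% (without cKO-126) to 1.14% in injured nerves at 2 wpc and 0.0325% (without ctrl-171) to 3.81% (without cKO-177) at 4 wpc, 0 to 5 and 0 to 4 of the other adipocyte genes there, and a median of the 10 genes after injury in *Lepr*-cKO at 2 wpc of -0.94 to 2.86. Between genotypes in injured nerves at 2 wpc it gave log2 fold changes of -1.32 to 2.69 for *Adipoq*, -1.42 to 2.80 for *Plin1*, -0.31 to 2.86 for *Plin4*, -0.32 to 3.23 for *Cidec*, -1.92 to 3.21 for *Cfd*, -1.17 to 2.60 for *Retn*, -0.90 to 0.42 for *Pparg*, -0.26 to 0.62 for *Pnpla2* and -0.20 to 3.02 for *Slc2a4*. At 4 wpc it gave -1.28 to 0.10 for *Plin4*, -0.19 to 0.85 for *Cidec* and -0.13 to 1.28 for *Retn*, and after injury in *Lepr*-cKO at 2 wpc -0.71 to 3.39 for *Mlxipl* and -0.31 to 2.91 for *Slc2a4*. The cause of each other change was not tested. Without the injured nerve of cKO-126, an alternative chosen after seeing the data, the 10 genes most like *Adipoq*, *Plin1* and *Cidec* had r of 0.787 to 0.983. Levels near or under 1 CPM rest on few reads and are imprecise, most of all in injured *Lepr*-ctrl nerves at 4 wpc.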
